A study of Homo sapiens with 60 samples.

Results

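Chromosome 19 holds the densest collection of C2H2 zinc finger genes in the human genome, and the RNA level of these genes was followed in metal-treated cells. Members were the protein-coding genes whose symbol is ZNF followed by a number alone, that lie on chromosome 19 (GRCh38), and that had at least 300 counts summed over the 60 libraries. The rule gave 191 members of the 240 chromosome 19 genes with such a symbol, against 62703 genes in the whole table and 11926 genes that reached the same floor. The rule used the summed counts and the annotation, and no difference between metal-treated and non-treated cells, so the members were selected on their summed counts, by a rule set with earlier results of these data known.

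The cells were 1321N1, an established human astrocytoma line used as an astrocyte model. They received 2.55 µM sodium metaarsenite (arsenic), 2.3 µM cadmium chloride (cadmium) or 20 µM mercury chloride (mercury), or were left non-treated, and RNA was taken at 5 times, after 1.5 h, 3 h, 6 h, 12 h or 24 h. Each of the 20 groups had 3 libraries, which the series describes as technical triplicates, so the p-values below measure only the spread between these libraries. Libraries were made from the 3′ end of polyadenylated RNA and held 2215276 to 4404609 counts each.

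Most proteins of this family carry a KRAB box at one end and a row of zinc fingers at the other. The fingers bind DNA, very often within transposable elements, and the KRAB box recruits TRIM28, which in turn brings the histone methyltransferase SETDB1 and the HP1 proteins to silence the locus. The genes arose by repeated duplication and therefore sit side by side in clusters of near relatives. Members without a KRAB box include activators and factors of other types.

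The marker genes of the labelled line were only partly present. Of 8 astrocyte markers, SOX9 and GJA1 had a median above 1 CPM (counts scaled to a common library size), AQP4 and ALDH1L1 had no count in any library, and the median of GFAP was 0. The summed level of the 8 genes was 64.4 to 132 CPM in non-treated and 51.0 to 146 CPM in metal-treated libraries. VIM, CD44 and NES, which mark glioma lines, were all present, and their sum was 3794 to 5691 CPM in non-treated and 3330 to 6236 CPM in treated libraries. None of the microglial, oligodendrocyte or endothelial markers had a median above 1 CPM, and of 4 neuronal markers only SYT1 did, at 10.97 CPM. In these bulk libraries a smaller number of expressing cells and less RNA per cell cannot be told apart.

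Members had few counts. Their totals over all libraries ran from 304 to 31742 counts with a median of 1749, and together they took 0.212 to 0.287% of the counts of a library. A count of 0 in at least 1 library was found for 15 members, and 26 averaged under 10 counts per library. The members just inside the floor were ZNF547 with 304 counts, ZNF835 with 310 and ZNF565 with 314. The genes just outside were ZNF460 with 295 and ZNF57 and ZNF763 with 292 each. The floor was taken over all groups, and 188 of the 191 members also averaged at least 5 counts in the 15 non-treated libraries alone. The 5 members with the most counts were ZNF146 (mean 529 counts per library), ZNF791 (479.6), ZNF428 (307), ZNF121 (270.1) and ZNF829 (186). Of these, ZNF146, ZNF428 and ZNF121 passed the test in no comparison of a metal with non-treated cells. Non-treated libraries held ZNF146 at 109 to 184 CPM.

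A member was called when its Benjamini-Hochberg adjusted p, taken over all 11926 genes in edgeR's quasi-likelihood test, was under 0.05. The log2 fold change (LFC) is that of metal over non-treated cells at the matching time. Of the 191 members, 142 were called in none of the 15 comparisons and 49 in at least 1. Among the 49, 38 were called higher only, 10 lower only and 1 both ways. ZNF714 was that exception, lower with mercury at 6 h (LFC -0.61) and higher with arsenic at 12 h (0.80). Without non-treated replicate 1 the first was -0.49 (adjusted p = 0.218), and without non-treated replicate 2 the second was 0.61 (adjusted p = 0.135). A single comparison held the call for 32 members, and 5 members were called in 3 or more. Those were ZNF473 in 5 comparisons, ZNF773 in 4, and ZNF829, ZNF317 and ZNF486 in 3 each.

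**Figure D1:**
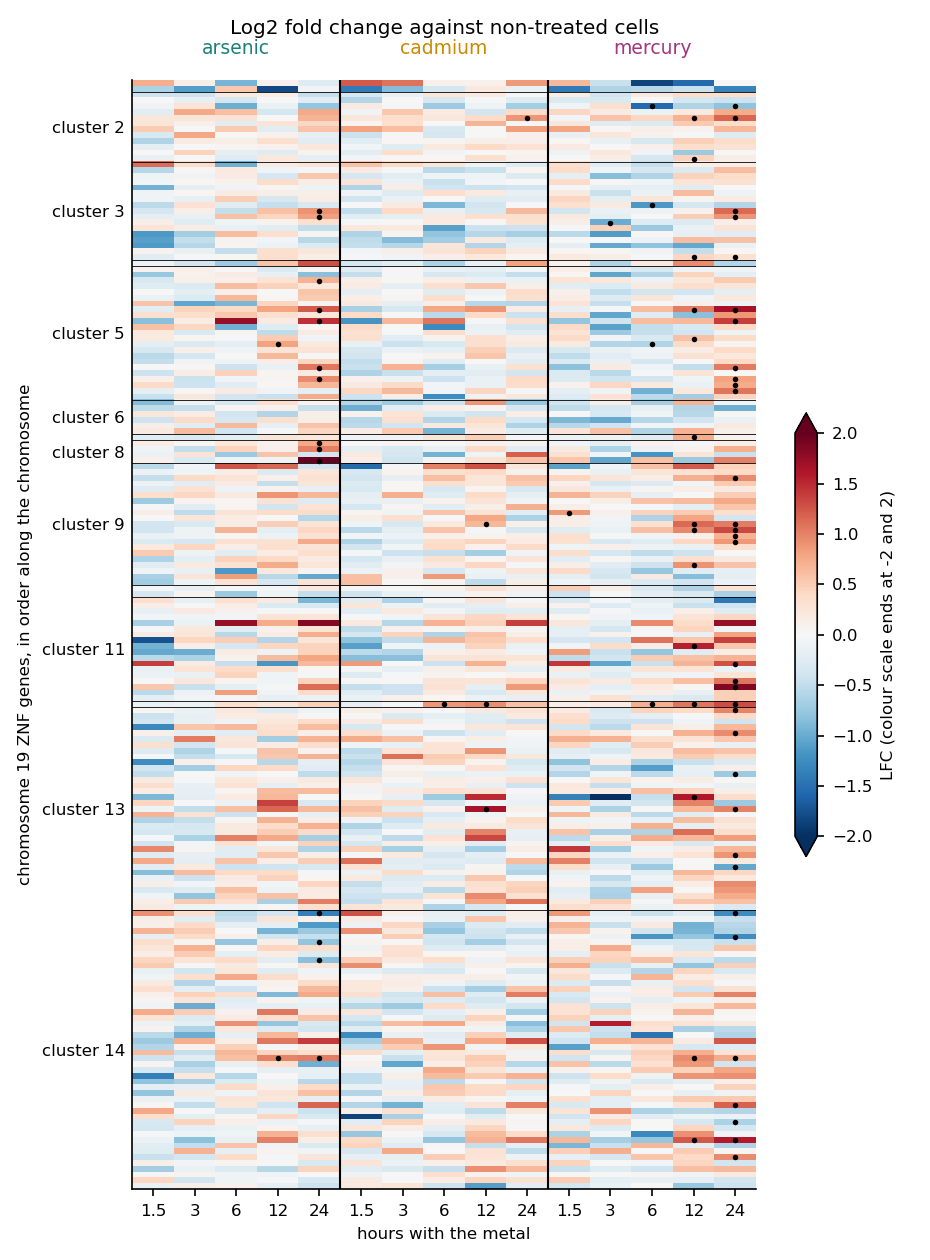
Log2 fold change of the 191 members (rows, in chromosome order, lines between clusters) in the 15 comparisons with non-treated cells (columns, by metal and hours). Colour gives the LFC and a dot marks an adjusted p under 0.05. Dots are rare up to 6 h and most frequent with mercury at 24 h (33), followed by mercury at 12 h and arsenic at 24 h (14 each).

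In the first hours almost no member was called. At 1.5 h arsenic and cadmium gave 0 calls among the members, in edgeR and in DESeq2 alike. At an unadjusted p under 0.05, arsenic had 1 member higher and 15 lower (all genes 5.68% and 4.33%), and cadmium 4 higher and 10 lower (all genes 3.45% and 4.49%). Over all genes tested, 0.0419% were called higher and 0.00839% lower with arsenic, and 0% either way with cadmium. Mercury at 1.5 h had 1 member called higher, against 0.495% of all genes higher and 0.0839% lower. This was ZNF850, a KRAB zinc finger gene, with 16.3, 17.2 and 13.7 CPM in the non-treated libraries and 25.9, 31.1 and 28.1 CPM with mercury. The 2 groups did not overlap, and the LFC was 0.84 ± 0.21 (SE, n = 3 per group, adjusted p = 0.0232). The call held only in the fit without mercury replicate 1, and without non-treated replicate 3 the values were 0.76 and adjusted p = 0.249.

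At 3 h arsenic and cadmium again gave 0 calls in edgeR and DESeq2. Unadjusted, arsenic had 5 members higher and 3 lower (all genes 3.97% and 3.39%), and cadmium 4 and 5 (4.85% and 3.54%). The calls over all genes were 0.126% higher and 0.0335% lower with arsenic, and 0.21% higher and 0% lower with cadmium. Mercury had 1 member lower, ZNF44, with 1.3% of all genes called higher and 0.184% lower. ZNF44, a KRAB zinc finger gene, was at 10.4, 12.4 and 14.2 CPM in non-treated and at 6.10, 6.69 and 5.61 CPM in mercury-treated libraries. All mercury libraries lay below the non-treated ones (LFC -0.998 ± 0.27, SE, n = 3 per group, adjusted p = 0.0328). This call held only without non-treated replicate 1, and without non-treated replicate 3 it was -0.88 with adjusted p = 0.219.

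At 6 h arsenic gave 0 calls in edgeR and DESeq2, with 12 members higher and 4 lower at an unadjusted p under 0.05 (all genes 4.88% and 4.67%). The adjusted calls over all genes were 0.696% higher and 0.302% lower. Cadmium had ZNF473 higher (all genes 1.73% higher, 0.411% lower). Mercury had ZNF473 higher and ZNF414, ZNF433 and ZNF714 lower (all genes 5.04% higher, 2.99% lower). The call of ZNF433 (LFC -1.15) held only without non-treated replicate 3. ZNF414, which has no KRAB box, was at 13.0, 14.2 and 21.7 CPM in non-treated and at 6.08, 4.66 and 5.90 CPM in mercury-treated libraries. The mercury libraries were the lower ones throughout (LFC -1.56 ± 0.32, SE, n = 3 per group, adjusted p = 0.000386), and the call held when any single library was left out. ZNF414 was also called lower with mercury at 24 h, from 16.6, 17.4 and 14.5 to 10.8, 9.03 and 7.66 CPM (LFC -0.81, adjusted p = 0.0353). The 24 h call held in 2 of the 6 fits that left a library out, those without mercury replicate 1 or non-treated replicate 3.

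At 12 h the calls among members pointed up. Arsenic had 2 members higher, ZNF773 and ZNF714, and 0 lower (5 lower at an unadjusted p under 0.05, all genes 7.66%, and 0 in DESeq2), against 2.45% of all genes higher and 1.83% lower. Cadmium had 3 higher, ZNF701, ZNF473 and ZNF829, and 0 lower (3 lower unadjusted, all genes 10.1%, and 0 in DESeq2), against 5.33% and 3.19%. Mercury had 14 members higher, which is 7.33% of the members against 9.17% of all genes, and 0 lower (6 lower unadjusted, all genes 14.5%, and 1 in DESeq2) against 7.47% of all genes. The share called higher with mercury was thus near or under the background, while the share called lower was under it. At 12 h the median LFC of the members came to 0.08 (arsenic), 0.10 (cadmium) and 0.11 (mercury).

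At 24 h the metals differed in how many members they moved. Mercury had 27 members higher and 6 lower, or 14.1% and 3.14% of the members, against 14.8% and 13.6% of all genes. Arsenic had 11 higher and 3 lower, or 5.76% and 1.57%, against 6.99% and 7.74% of all genes. Cadmium had 1 member higher, ZNF317, and 0 lower (2 lower unadjusted, all genes 5.84%, and 0 in DESeq2), or 0.524% against 1.6% of all genes higher and 0.579% lower. The shares called higher were close to or below the background with each metal, and the shares called lower with arsenic and mercury were below it. The 3 comparisons at 24 h share their non-treated libraries, so their values are given side by side only.

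**Figure D2:**
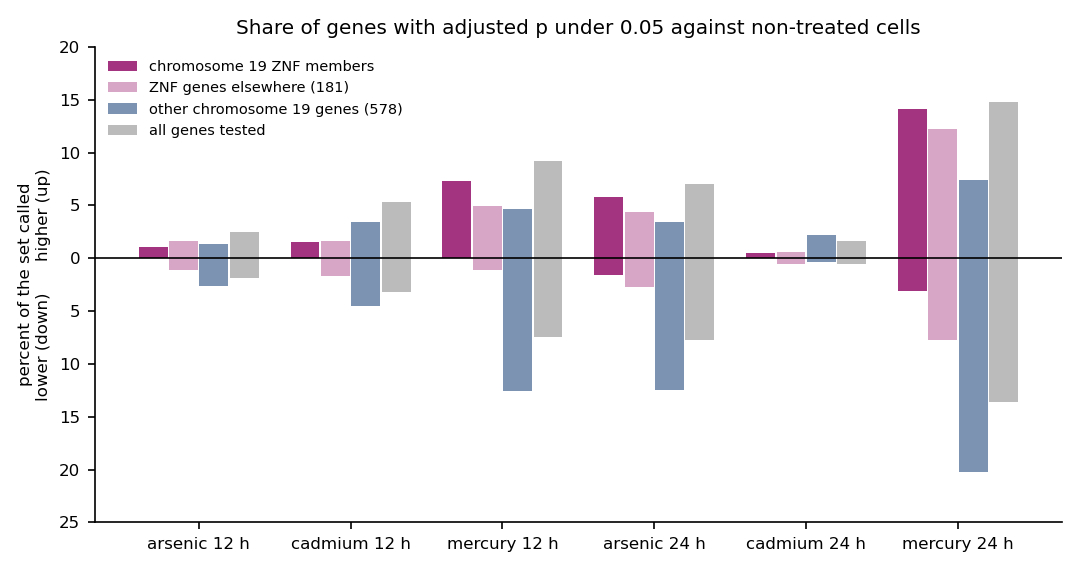
Percent of genes called higher (up) and lower (down) at 12 and 24 h of each metal, in the 191 members, in ZNF genes of other chromosomes, in other protein-coding genes of chromosome 19 and in all genes tested. With mercury at 24 h, 14.1% of the members and 14.8% of all genes were called higher, and 3.14% and 13.6% were called lower.

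Members also had fewer counts than the background (median 29.15 against 77.3 per library) and a larger median SE of the LFC at 24 h (0.33 to 0.34 against 0.21), which bears on how often a gene can be called.

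Medians over the members followed the same order of metals. At 24 h the members' median LFC came to 0.16 (arsenic), 0.007 (cadmium) and 0.21 (mercury), while the medians over all genes were 0.009, -0.003 and -0.005. An LFC above 0 was found for 123 members under arsenic (64.4%, all genes 51%), 97 under cadmium (50.8%, all genes 49.6%) and 128 under mercury (67.0%, all genes 49.5%). ZNF genes on other chromosomes had medians of 0.07, -0.007 and -0.01, and the other protein-coding genes of chromosome 19 had medians of -0.13, 0.03 and -0.19. In that last set, 7.44% were called higher and 20.2% lower with mercury at 24 h. These sets were not tested against each other.

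The summed level of all 191 members was higher in late metal-treated libraries, without overlap except with cadmium at 24 h. Non-treated cells at 24 h had 2427 ± 49.97 CPM (SD, n = 3), and mercury-treated cells had 2873 ± 4.82 CPM, with no overlap between the groups. Arsenic gave 2680 ± 99.7 CPM and cadmium 2487 ± 55.7 CPM. At 12 h the sums were 2455 ± 54.7 CPM in non-treated, 2822 ± 104 CPM in mercury-, 2715 ± 95.3 CPM in cadmium- and 2627 ± 80.9 CPM in arsenic-treated cells.

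At the early times the members lay the other way in several comparisons, without calls. The median LFC was -0.12 for arsenic at 1.5 h, with 71 members above 0 (37.2%, all genes 48%), -0.12 for cadmium at 1.5 h, with 70 above 0 (36.6%, all genes 48.9%), and -0.14 for mercury at 3 h, with 64 above 0 (33.5%, all genes 48.8%). Over all genes these medians were -0.01, -0.006 and -0.006, and over the other protein-coding genes of chromosome 19 they were 0.14, 0.09 and 0.05. The remaining medians up to 6 h lay between -0.08 and 0.09. The summed level at 1.5 h was 2484 ± 41.0 CPM (SD, n = 3) in non-treated, 2279 ± 164 CPM in arsenic- and 2302 ± 88.4 CPM in cadmium-treated cells, with the highest arsenic library, at 2468 CPM, within the non-treated range of 2449 to 2529 CPM and all cadmium libraries below it. At 3 h it was 2303 to 2363 CPM with mercury and 2421 to 2497 CPM without, with no overlap. These sums and medians were not tested.

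**Figure D3:**
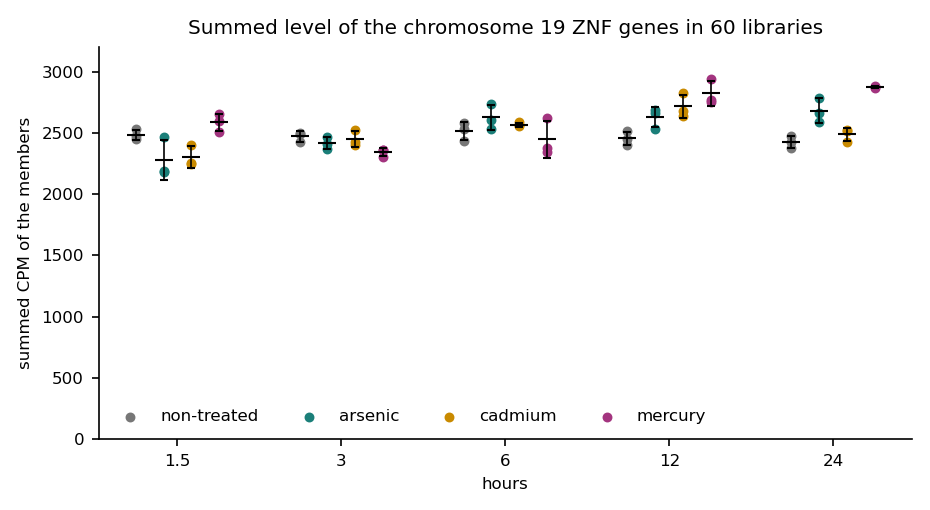
Summed CPM of the 191 members in each of the 60 libraries (points) by time and treatment, with the mean and SD of the 3 libraries of a group. The mercury libraries at 24 h lie between 2869 and 2879 CPM, above the non-treated ones at 2377 to 2477 CPM. Arsenic libraries at 24 h, at 2590 to 2787 CPM, also lie above the non-treated ones.

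ZNF829 had the lowest adjusted p of all members with mercury at 12 and at 24 h, and its neighbour ZNF568 was called at the same times. These KRAB zinc finger genes lie head to head, with ZNF829 at chr19:36888124-36916291 on the minus strand and ZNF568 at chr19:36916316-37005037 on the plus strand, so that their annotated starts are 25 bases apart. The mouse counterpart of ZNF568 is a repressor of the placental Igf2 transcript. The promoter of ZNF829 (RefSeq, GRCh38.p14, chr19:36916242-36916541, minus strand, 250 bases before to 50 after the start) is shown because it covers the space between the starts of both genes. Capitals mark a match to the antioxidant response element TGACNNNGC and one to the metal response element core TGCGCNC, both on the reverse strand.
ZNF829: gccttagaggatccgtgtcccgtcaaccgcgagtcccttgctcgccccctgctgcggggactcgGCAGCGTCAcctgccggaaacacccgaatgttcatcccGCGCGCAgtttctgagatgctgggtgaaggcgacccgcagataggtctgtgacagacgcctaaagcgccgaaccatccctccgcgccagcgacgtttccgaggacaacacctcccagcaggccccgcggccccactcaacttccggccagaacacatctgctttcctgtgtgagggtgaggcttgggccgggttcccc

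At 12 h ZNF829 was at 43.7, 41.1 and 48.3 CPM in non-treated cells and at 87.1, 104 and 99.7 CPM with mercury. The groups lay far apart (LFC 1.13 ± 0.15, SE, n = 3 per group, adjusted p = 3.21e-08). With cadmium ZNF829 was at 74.1, 75.5 and 62.0 CPM (LFC 0.66 ± 0.16, adjusted p = 0.00256), again above all non-treated libraries. With arsenic it was at 58.0, 61.4 and 67.2 CPM, which did not pass the test (0.49, adjusted p = 0.0564). At 24 h the non-treated libraries had 44.1, 52.7 and 46.1 CPM and the mercury libraries 103, 93.1 and 93.6 CPM (LFC 1.02 ± 0.15, adjusted p = 1.47e-07). The values at 24 h were 0.11 with cadmium (adjusted p = 0.857) and 0.28 with arsenic (adjusted p = 0.25). The 3 calls of ZNF829 held when any single library was left out.

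At 24 h ZNF568 was at 9.93, 5.79 and 12.5 CPM in non-treated cells and at 27.3, 24.9 and 18.3 CPM with mercury. The mercury libraries were all higher (LFC 1.32 ± 0.31, SE, n = 3 per group, adjusted p = 0.000748), and the call held in every fit that left a library out. At 12 h ZNF568 was at 9.19, 8.95 and 12.6 CPM without and at 11.4, 30.6 and 17.5 CPM with mercury. Here 1 mercury library fell within the non-treated range (LFC 0.96 ± 0.31, adjusted p = 0.025), and the call was lost without mercury replicate 2 (0.51, adjusted p = 0.386) and without non-treated replicates 1 or 2. Of the stretches of 50 bases at its transcript ends, 16.3% also occur in another gene. Among members on opposite strands whose annotated starts lie within 1000 bases of each other, the other pair was ZNF529 and ZNF382, which were not called in the mercury comparisons at 12 and 24 h.

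ZNF473 was called in more comparisons than any other member. It encodes a KRAB zinc finger protein that takes part in 3′ processing of replication-dependent histone pre-mRNA, and lies alone at chr19:50025714-50053414. At 12 h it was at 14.2, 10.2 and 14.2 CPM in non-treated, 25.9, 21.0 and 27.0 CPM in cadmium- and 22.9, 27.96 and 30.6 CPM in mercury-treated libraries. Every treated library was above every non-treated one, with an LFC of 0.93 ± 0.21 for cadmium (SE, n = 3 per group, adjusted p = 0.00193) and 1.08 for mercury (adjusted p = 8.48e-05). At 24 h ZNF473 was at 10.4, 13.4 and 10.1 CPM without and at 24.8, 27.4 and 31.3 CPM with mercury (LFC 1.30 ± 0.21, adjusted p = 1.46e-06). Cadmium at 24 h gave 22.05, 13.5 and 14.6 CPM (0.58, adjusted p = 0.182) and arsenic an LFC of 0.47 (adjusted p = 0.153), neither past the test.

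The rise of ZNF473 at 6 h was less firm. Non-treated libraries had 12.6, 9.45 and 16.9 CPM, cadmium libraries 17.6, 27.3 and 27.4 CPM and mercury libraries 18.5, 21.0 and 25.1 CPM. The groups did not overlap (LFC 0.87, adjusted p = 0.0135 with cadmium, 0.72, adjusted p = 0.0235 with mercury). Both calls were lost in 4 of the 6 fits that left a library out, treated replicates 2 and 3 and non-treated replicates 1 and 2, with 0.69 (adjusted p = 0.14) and 0.54 (adjusted p = 0.191) without non-treated replicate 2. The calls at 12 and 24 h held without any single library.

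With arsenic and with mercury, genes of a dense run of near relatives were called higher. The run is 1 of 14 clusters of members and was singled out after its values were seen. Clusters were split where the starts of neighbouring members lay more than 1 Mb apart. The run, between positions 19668796 and 22215801, holds 23 members from ZNF101 to ZNF676. With arsenic at 24 h, 5 of its members were called higher (ZNF506, ZNF486, ZNF626, ZNF493 and ZNF43), with mercury 6, and with cadmium none, against 6.99%, 14.8% and 1.6% of all genes called higher. The median LFC of the cluster was 0.23 for arsenic, 0.39 for mercury and -0.03 for cadmium. For mercury such values were not particular to this cluster, since 5 of the 21 members from ZNF565 to ZNF573 were called higher with a median of 0.45, and 3 of the 18 from ZNF575 to ZNF180 with a median of 0.48. The arsenic medians of those clusters were 0.26 and 0.32, also above that of this cluster, although none of their members was called with arsenic. The next cluster along the chromosome, 6 members from ZNF724 to ZNF254, had medians of 0.11 with arsenic and -0.03 with mercury, without calls. Genes of this primate-expanded region encode KRAB proteins that bind transposable elements.

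The promoters of ZNF486 and ZNF626 (RefSeq, GRCh38.p14) show how close these relatives are, and capitals mark the bases that differ in the alignment of the pair. The first lies at chr19:20166964-20167263 on the plus strand and the second at chr19:20661522-20661821 on the minus strand.
ZNF486: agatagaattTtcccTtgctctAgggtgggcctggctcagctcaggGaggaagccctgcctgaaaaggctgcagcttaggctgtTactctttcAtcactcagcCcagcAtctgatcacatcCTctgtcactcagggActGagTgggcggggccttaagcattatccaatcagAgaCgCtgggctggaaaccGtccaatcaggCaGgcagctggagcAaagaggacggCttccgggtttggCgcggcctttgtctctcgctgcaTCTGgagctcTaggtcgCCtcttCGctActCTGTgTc
ZNF626: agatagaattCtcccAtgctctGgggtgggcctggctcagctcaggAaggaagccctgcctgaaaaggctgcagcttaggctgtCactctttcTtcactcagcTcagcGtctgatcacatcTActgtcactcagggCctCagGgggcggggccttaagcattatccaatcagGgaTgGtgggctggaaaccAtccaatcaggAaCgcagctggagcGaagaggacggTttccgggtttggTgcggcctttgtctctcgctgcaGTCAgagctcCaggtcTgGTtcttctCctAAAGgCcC

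Of 300 bases, 263 were identical between ZNF486 and ZNF626 (87.7%). The median identity over the 171 pairs of promoters within the cluster was 78.7%, against 51.0% over all 14878 pairs of member promoters. Close relatives in the promoter were not all called. ZNF93, 88.0% identical to ZNF486, had LFC values of 0.55 with arsenic and -0.20 with mercury at 24 h, and ZNF66, 87.7% identical, had 0.04 and 0.39, none of them past the test. ZNF90, at 87.3%, had 0.07 and -0.12.

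ZNF486 had 2.80, 7.004 and 5.50 CPM in non-treated cells at 24 h. Arsenic gave 11.4, 10.99 and 13.0 CPM and mercury 13.3, 12.5 and 22.7 CPM, all above the non-treated range, while cadmium gave 4.77, 3.44 and 8.91 CPM. The LFC was 1.22 ± 0.34 with arsenic (SE, n = 3 per group, adjusted p = 0.00884), 1.67 ± 0.34 with mercury (adjusted p = 7.43e-05) and 0.14 with cadmium. The arsenic call was lost without non-treated replicate 1 (0.91, adjusted p = 0.114), and the mercury call held in every such fit. At 12 h mercury raised ZNF486 from 8.35, 4.63 and 4.47 to 10.2, 13.3 and 12.1 CPM (LFC 1.03, adjusted p = 0.0264), a call that held only without mercury replicate 1 or non-treated replicate 1 and was 0.86 (adjusted p = 0.124) without non-treated replicate 3.

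ZNF493 of the same cluster had 12.7, 9.74 and 9.27 CPM in non-treated, 28.2, 20.8 and 17.7 CPM in arsenic- and 23.2, 23.0 and 19.7 CPM in mercury-treated libraries at 24 h. Both metals gave values above the non-treated range (LFC 1.06 ± 0.27, SE, n = 3 per group, adjusted p = 0.00346 and 1.04, adjusted p = 0.00196), and both calls held without any single library. ZNF43 had 10.95, 11.3 and 12.5 CPM without metal, 20.5, 19.4 and 26.8 CPM with arsenic (LFC 0.94, adjusted p = 0.0135) and 23.2, 18.1 and 19.3 CPM with mercury (0.80, adjusted p = 0.0249). The arsenic call of ZNF43 was lost without arsenic replicate 3 (0.78, adjusted p = 0.0865) or non-treated replicate 1. Its mercury call was lost without mercury replicate 1 (0.69, adjusted p = 0.106) or non-treated replicates 1 or 2.

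ZNF626 rested on few counts. Its non-treated libraries had 1.53, 2.74 and 3.48 CPM at 24 h, the arsenic libraries 4.70, 4.92 and 11.5 CPM and the mercury libraries 4.44, 8.72 and 6.998 CPM. The ranges did not overlap (LFC 1.46 ± 0.51, SE, n = 3 per group, adjusted p = 0.0421 with arsenic, 1.38, adjusted p = 0.0353 with mercury). The arsenic value was 0.90 (adjusted p = 0.34) without arsenic replicate 3 and was also not called without non-treated replicates 1 or 2. The mercury value was 1.10 (adjusted p = 0.166) without non-treated replicate 1, and that call held only without mercury replicate 1 or non-treated replicate 3.

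A second group with arsenic calls was a small cluster of 4 members between positions 34677639 and 34945170. With arsenic at 24 h, 3 of the 4 were called higher (all genes 6.99%), and none with cadmium or mercury (1.6% and 14.8%). The median LFC of the 4 members was 0.89 for arsenic, 0.42 for mercury and 0.32 for cadmium. The absence of calls for mercury and cadmium is thus not an absence of positive values. The cluster was singled out after its values were seen. ZNF302 had 17.8, 25.9 and 19.7 CPM without and 37.2, 28.9 and 41.9 CPM with arsenic (LFC 0.77 ± 0.21, SE, n = 3 per group, adjusted p = 0.00633), with no overlap. It was 0.66 (adjusted p = 0.0609) without non-treated replicate 1 and was not called without arsenic replicate 3 either. With mercury ZNF302 was at 22.5, 24.6 and 21.99 CPM, within the non-treated range (0.13, adjusted p = 0.7).

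ZNF181, its neighbour, had 6.88, 6.09 and 6.08 CPM in non-treated and 14.8, 9.83 and 13.9 CPM in arsenic-treated libraries (LFC 1.002 ± 0.31, SE, n = 3 per group, adjusted p = 0.02). The groups did not overlap, but the call held only without arsenic replicate 2 or non-treated replicate 1, and was 0.89 (adjusted p = 0.0842) without arsenic replicate 1. ZNF30 was near the detection limit, at 0.764, 0.609 and 0.290 CPM without and 3.35, 2.89 and 1.77 CPM with arsenic (LFC 2.17 ± 0.78, adjusted p = 0.0484). That call held only without arsenic replicate 3, and was 1.88 (adjusted p = 0.134) without non-treated replicate 3. It was also lost with a replicate block (adjusted p = 0.0533), in a fit of those 6 libraries (adjusted p = 0.0732), with filterByExpr and with no filter on low counts.

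ZNF773, a KRAB gene at chr19:57499915-57518404, was called with arsenic and mercury at both late times. At 12 h it had 14.2, 13.6 and 13.7 CPM in non-treated, 31.8, 26.5 and 24.2 CPM in arsenic- and 27.4, 27.0 and 25.5 CPM in mercury-treated libraries. Both treated groups were far above a tight control range (LFC 0.99 ± 0.25, SE, n = 3 per group, adjusted p = 0.00727 and 0.94, adjusted p = 0.00485). At 24 h it had 16.8, 14.3 and 11.9 CPM in non-treated, 27.2, 30.1 and 30.7 CPM in arsenic- and 22.2, 28.3 and 21.7 CPM in mercury-treated libraries (LFC 1.03, adjusted p = 0.00177 and 0.74, adjusted p = 0.0191). Cadmium at 24 h gave an LFC of 0.08.

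The arsenic call of ZNF773 at 12 h was lost without arsenic replicate 1 (0.87, adjusted p = 0.0657), and the mercury call at 24 h without mercury replicate 2 (0.61, adjusted p = 0.111) or non-treated replicates 2 or 3. The remaining calls of ZNF773 held without any single library. Of the stretches of 50 bases at its transcript ends 24.0% also occur in another gene, so its counts are less certain. The same holds for 14 members with over 20% shared, among them ZNF844 (50%), ZNF799 (41.0%) and ZNF222 (28.8%).

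Cadmium called few members. At 24 h the single call was ZNF317, a KRAB gene at chr19:9140397-9163424, with 7.39, 7.92 and 11.6 CPM in non-treated and 16.6, 17.2 and 15.7 CPM in cadmium-treated libraries (LFC 0.88 ± 0.25, SE, n = 3 per group, adjusted p = 0.0389). There was no overlap, yet the call held only without non-treated replicate 3, and was 0.75 (adjusted p = 0.217) without non-treated replicate 1. Mercury gave 18.7, 19.9 and 20.7 CPM at 24 h, all above the non-treated range (1.14, adjusted p = 0.000232), a call that held without any single library. The cadmium call was also lost in a fit of those 6 libraries (adjusted p = 0.274), with no filter on low counts (adjusted p = 0.131) and with library totals (adjusted p = 0.0535). Arsenic gave an LFC of 0.68 for ZNF317 (adjusted p = 0.0589), and mercury at 12 h one of 0.70 (adjusted p = 0.038) that held only without mercury replicate 1 or non-treated replicate 3.

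ZNF701 had the largest LFC of the 3 cadmium calls at 12 h, with 2.23, 4.32 and 3.41 CPM in non-treated and 7.28, 9.71 and 14.0002 CPM in cadmium-treated libraries. The cadmium libraries were all higher (LFC 1.65 ± 0.41, SE, n = 3 per group, adjusted p = 0.0041), and the call was lost without cadmium replicate 3 (1.37, adjusted p = 0.0617) or non-treated replicate 1. ZNF829 and ZNF473 were the other cadmium calls at that time and held without any single library.

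Mercury at 24 h raised several further KRAB members. ZNF112 had 0.509, 1.52 and 3.77 CPM in non-treated and 5.08, 8.41 and 7.33 CPM in mercury-treated libraries (LFC 1.85 ± 0.54, SE, n = 3 per group, adjusted p = 0.00663), and the call was lost without non-treated replicate 1 (1.37, adjusted p = 0.0786). ZNF256, which can act as a transcriptional repressor, had 2.29, 2.44 and 2.32 CPM without and 8.89, 7.16 and 5.33 CPM with mercury (1.59 ± 0.42, adjusted p = 0.00235). ZNF175, a KRAB gene at 51571283 to 51592510, had 11.5, 9.44 and 11.01 CPM without and 20.0, 21.8 and 21.3 CPM with mercury (0.98 ± 0.25, adjusted p = 0.00207). The mercury libraries of all 3 genes lay above the non-treated ones, and the calls of ZNF256 and ZNF175 held without any single library.

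ZNF136, which carries a KRAB box and can repress transcription, was at 16.3, 17.1 and 20.0 CPM in non-treated, 34.9, 28.6 and 30.7 CPM in arsenic- and 32.7, 37.1 and 28.7 CPM in mercury-treated libraries at 24 h. Every treated library was above every non-treated one (LFC 0.82, adjusted p = 0.000997 and 0.89, adjusted p = 0.000149), and both calls held without any single library. ZNF274 recruits SETDB1 and TRIM28 to the 3′ ends of zinc finger genes and was singled out after its values were seen. It had 7.90, 17.4 and 16.2 CPM in non-treated and 25.7, 26.2 and 27.0 CPM in mercury-treated libraries (LFC 0.94, adjusted p = 0.00342), and the call was lost without non-treated replicate 1 (0.65, adjusted p = 0.0779). Beside ZNF136 and ZNF274, the members ZNF302, ZNF43, ZNF30, ZNF222, ZNF814, ZNF433, ZNF714, ZNF227 and ZNF844 lay outside the rule for named genes. So did ZNF93, ZNF66, ZNF90, ZNF708, ZNF507, ZNF333, ZNF506, ZNF865, ZNF529 and ZNF382.

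Of the 33 mercury calls at 24 h, 12 held in every fit that left a library out, namely ZNF317, ZNF844, ZNF136, ZNF486, ZNF493, ZNF829, ZNF568, ZNF227, ZNF473, ZNF175, ZNF347 and ZNF256. At 12 h with mercury 4 of 14 did so, ZNF829, ZNF222, ZNF473 and ZNF773. With arsenic at 24 h 3 of 14 did so, ZNF136, ZNF493 and ZNF773. DESeq2 called all of these as well. ZNF222 had 5.29, 3.09 and 6.04 CPM without and 16.8, 14.6 and 11.8 CPM with mercury at 12 h, with no overlap (LFC 1.56 ± 0.35, SE, n = 3 per group, adjusted p = 0.000612). ZNF791, one of the members with the most counts, rose with mercury by an LFC of 0.44 at 12 h (adjusted p = 0.00373) and 0.31 at 24 h (adjusted p = 0.0313). The first call of ZNF791 was lost without non-treated replicate 2 (0.33, adjusted p = 0.0562), and the second held only without mercury replicate 2.

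Some of the members that fell lacked a KRAB box. With arsenic at 24 h all 3 called lower (ZNF628, ZNF444 and ZNF580) lack a KRAB box, and with mercury 3 of 6 (ZNF628, ZNF784 and ZNF414) do. With each metal this was 3 of the 28 members without a KRAB box, against 7.74% (arsenic) and 13.6% (mercury) of all genes called lower. Of the 191 members, 163 had a match to the KRAB pattern and 28 did not, in the translated transcript used for each gene. A box that the pattern misses is counted here as absent. The 11 arsenic and 27 mercury risers at 24 h were all among the 163 members with a KRAB box. The shares of all genes called higher were 6.99% and 14.8%, and no share was tested against the background. The median LFC was 0.18 with arsenic and 0.31 with mercury in the KRAB members, and -0.20 and -0.14 in the others. With cadmium the medians were 0.01 and -0.03. The difference between the KRAB groups was not tested, and 3 members without a KRAB box (ZNF628, ZNF865 and ZNF444) were called higher at 24 h than at 1.5 h in non-treated cells. Earlier, at 12 h, members without a KRAB box were also called higher with a metal. These were 1 of the 28 with arsenic (ZNF714, all genes 2.45%) and 1 with mercury (ZNF507, all genes 9.17%).

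ZNF628, a zinc finger transcription factor with 16 fingers and no KRAB box at chr19:55476617-55484487, had 7.13, 12.5 and 4.35 CPM in non-treated cells at 24 h. Arsenic gave 2.35, 1.74 and 5.01 CPM, mercury 2.54, 4.36 and 3.00 CPM and cadmium 7.50, 9.47 and 8.91 CPM. The arsenic and mercury libraries overlapped the lowest non-treated library (LFC -1.37 ± 0.45, SE, n = 3 per group, adjusted p = 0.027 and -1.26, adjusted p = 0.027), and cadmium gave 0.11. Without non-treated replicate 2 the values were -0.92 (adjusted p = 0.261) and -0.80 (adjusted p = 0.259). The arsenic call was also lost without arsenic replicates 1 or 2, and the mercury call without mercury replicates 1 or 3. In non-treated cells ZNF628 was itself higher at 24 h than at 1.5 h (LFC 1.80 ± 0.48, adjusted p = 0.0223).

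ZNF444, a zinc finger factor with a SCAN domain and no KRAB box, had 22.2, 26.5 and 18.3 CPM in non-treated and 18.1, 12.4 and 7.37 CPM in arsenic-treated libraries at 24 h. The highest arsenic library lay just below the lowest non-treated one (LFC -0.83 ± 0.24, SE, n = 3 per group, adjusted p = 0.0114), and the call was lost without arsenic replicate 3 (-0.55, adjusted p = 0.151) or non-treated replicate 2. Cadmium gave 31.1, 23.8 and 25.7 CPM (0.28) and mercury an LFC of -0.53 (adjusted p = 0.0815). ZNF444 also rose in non-treated cells, by 0.95 at 12 h and 0.94 at 24 h (adjusted p = 0.0189) against 1.5 h. ZNF580 had 13.8, 20.1 and 24.0 CPM without and 14.4, 7.81 and 11.2 CPM with arsenic, which overlap (LFC -0.79, adjusted p = 0.0264). Its call held only without arsenic replicate 1 or non-treated replicate 1 and was -0.59 (adjusted p = 0.198) without arsenic replicate 2.

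Mercury lowered ZNF347, a KRAB gene, from 19.4, 18.0 and 16.5 to 6.98, 10.9 and 8.66 CPM at 24 h (LFC -1.02 ± 0.26, SE, n = 3 per group, adjusted p = 0.002). There was no overlap, and the call held without any single library. ZNF784 had 4.59, 7.92 and 6.66 CPM without and 3.17, 2.49 and 2.33 CPM with mercury (-1.24 ± 0.41, adjusted p = 0.0184), and the call was lost without non-treated replicate 2 (-1.06, adjusted p = 0.0877) or mercury replicates 2 or 3. ZNF766, a KRAB gene, had 19.6, 24.7 and 16.8 CPM without and 13.0, 15.9 and 7.66 CPM with mercury (-0.73, adjusted p = 0.0189), and the call was lost without mercury replicate 3 (-0.49, adjusted p = 0.172) or non-treated replicate 2. ZNF814 was the sixth faller (-0.63, adjusted p = 0.0218), a call lost without mercury replicates 1 or 3 or non-treated replicate 1 (-0.54, adjusted p = 0.107).

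Promoters of the members were searched for response elements, on both strands, in the 173 that matched RefSeq. The metal response element core (TGCACNC or TGCGCNC) was in 40.5% of member promoters and 29.3% of all 27305. Among mercury risers at 24 h, 5 of the 26 with a promoter had it (19.2%), and among the fallers 5 of 6 (83.3%). The antioxidant response element (TGACNNNGC) was in 14.5% of member promoters and 13.6% of all, the heat shock element (GAANNTTC) in 10.4% and 6.87%, and the ATF4 element (TGATGNAA) in 1.16% and 3.67%. The GC box (GGGCGG) was in 67.6% against 44.6%, and the median GC content was 60.7% against 58.3%. Members had to reach the count floor, while the 27305 promoters were not filtered by counts, so the sets are unlike in more than membership. A match is a description of the letters, and these shares were not tested.

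The promoters of a pair of fallers are shown (RefSeq, GRCh38.p14) with the metal response element core in capitals, ZNF628 at chr19:55476367-55476666 on the plus strand and ZNF784 at chr19:55624517-55624816 on the minus strand.
ZNF628: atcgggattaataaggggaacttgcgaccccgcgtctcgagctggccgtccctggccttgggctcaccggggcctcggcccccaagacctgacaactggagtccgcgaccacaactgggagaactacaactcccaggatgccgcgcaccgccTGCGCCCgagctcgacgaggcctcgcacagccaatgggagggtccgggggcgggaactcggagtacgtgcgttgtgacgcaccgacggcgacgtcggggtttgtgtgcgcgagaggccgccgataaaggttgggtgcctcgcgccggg
ZNF784: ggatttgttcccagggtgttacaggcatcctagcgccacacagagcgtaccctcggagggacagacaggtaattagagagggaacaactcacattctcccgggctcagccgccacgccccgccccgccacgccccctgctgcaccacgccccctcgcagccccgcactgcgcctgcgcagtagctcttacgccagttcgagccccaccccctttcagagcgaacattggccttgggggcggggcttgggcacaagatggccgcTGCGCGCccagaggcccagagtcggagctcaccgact

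The silencing machinery that KRAB zinc finger proteins work through was described with a list of 34 genes, all of them tested. With arsenic at 24 h 7 of the 34 were called lower (all genes 7.74%) and none higher (6.99%), with a median LFC of -0.17. With mercury 10 were called lower (all genes 13.6%) and 2 higher (MORC2 and TRIM33, all genes 14.8%), with a median of -0.10. With cadmium 1 was called higher (all genes 1.6%) and none lower (0.579%), with a median of -0.05. With arsenic at 24 h the SE in the list ran from 0.08 (DNMT1) to 0.37 (DNMT3A), against a median of 0.21 over all genes. Genes with a small SE are called more easily, and the list was not tested against the background.

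DNMT1, the maintenance DNA methyltransferase, had 692, 737 and 673 CPM in non-treated, 449, 468 and 449 CPM in arsenic-, 423, 420.4 and 498 CPM in mercury- and 591, 584 and 684 CPM in cadmium-treated libraries at 24 h. It was lower in every arsenic and mercury library (LFC -0.62 ± 0.08, SE, n = 3 per group, adjusted p = 6.7e-09 and -0.65, adjusted p = 9.1e-10). CBX3 and CBX5 are HP1 proteins that bind methylated histone H3. CBX3 had 1170.5, 1348 and 902 CPM without and 787, 769 and 841 CPM with arsenic (-0.51, adjusted p = 0.000248). CBX5 had 316, 289 and 296 CPM in non-treated and 221, 231 and 231 CPM in mercury-treated libraries (-0.40, adjusted p = 0.000663).

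SUMO2, a small modifier that TRIM28 attaches to itself, had 312, 346 and 335 CPM without and 232, 239 and 257 CPM with arsenic (-0.45, adjusted p = 0.00184). EHMT1, a histone H3 lysine methyltransferase, had 50.2, 35.6 and 43.2 CPM without and 17.1, 25.8 and 27.7 CPM with mercury (-0.87, adjusted p = 0.000371). TRIM28 itself had 164, 164 and 172 CPM in non-treated and 194, 205 and 207 CPM in cadmium-treated libraries (LFC 0.28 ± 0.08, SE, n = 3 per group, adjusted p = 0.0486), with -0.15 for arsenic (adjusted p = 0.252) and -0.02 for mercury (adjusted p = 0.889). The cadmium call of TRIM28 was lost with library totals (0.23, adjusted p = 0.134), with a replicate block (adjusted p = 0.052) and under other filters and samples. SETDB1 was called lower with arsenic (-0.56, adjusted p = 0.039). With cadmium CBX5 (-0.23, adjusted p = 0.229) and RBBP7 (-0.21, adjusted p = 0.261) did not pass the test. The part of these genes in the change of the zinc finger genes was not tested.

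The metals were also compared directly at 24 h. Between cadmium and mercury, 6 members were called higher and 20 lower with cadmium (3.14% and 10.5%), against 9.45% and 11% of all genes. Between arsenic and mercury, 3 were higher and 10 lower with arsenic (1.57% and 5.24%), against 4.44% and 7.24%. Between arsenic and cadmium, 7 were higher and 3 lower with arsenic (3.66% and 1.57%), against 4.46% and 6.06%. The share lower with cadmium against mercury was close to the background (10.5% against 11%), and the other shares were below it. Members had a larger median SE in these comparisons (0.33 to 0.34 against 0.21 to 0.22), which bears on how often a gene can be called.

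Among members called between arsenic and mercury with a mean of at least 10 counts per library, the 5 largest differences were in ZNF468, ZNF256, ZNF257, ZNF799 and ZNF175, all KRAB members and all lower with arsenic. ZNF175 was at 11.1, 11.6 and 7.08 CPM with arsenic and 20.0, 21.8 and 21.3 CPM with mercury, with no overlap (LFC -1.09 ± 0.26, SE, n = 3 per group, adjusted p = 0.00209), and held without any single library. ZNF256 was at 4.36, 2.02 and 1.47 CPM with arsenic and 8.89, 7.16 and 5.33 CPM with mercury (-1.46, adjusted p = 0.0128). ZNF257 was at 4.03, 2.89 and 4.72 CPM with arsenic and 11.1, 9.03 and 7.998 CPM with mercury (-1.27, adjusted p = 0.0193). ZNF468 was at 2.01, 3.76 and 2.95 CPM with arsenic and 8.89, 7.16 and 8.997 CPM with mercury (-1.50, adjusted p = 0.0256).

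ZNF799 had 1 mercury library at 3.49 CPM, under the arsenic ones at 4.03, 6.07 and 5.90 CPM, and the others at 16.8 and 15.7 CPM (LFC -1.15, adjusted p = 0.0291). Leaving out 1 library ended the calls of ZNF256 (-1.17, adjusted p = 0.0952 without arsenic replicate 3), ZNF257 (-1.09, adjusted p = 0.104 without arsenic replicate 2), ZNF468 (-1.30, adjusted p = 0.122 without arsenic replicate 1) and ZNF799 (-0.82, adjusted p = 0.243 without mercury replicate 2).

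In non-treated cells time alone moved few members. Against 1.5 h there were 0 calls at 3 h (all genes 0% higher and 0.126% lower) and at 6 h (0.176% and 0.319%), in edgeR and in DESeq2. At an unadjusted p under 0.05 the counts were 7 members higher and 5 lower at 3 h (all genes 2.13% and 2.31%) and 10 and 9 at 6 h (5.43% and 6.32%). There was 1 member higher and there were 2 lower at 12 h (all genes 2.22% and 2.1%), and 3 higher and 1 lower at 24 h (all genes 1.64% and 1.76%). The lower ones were ZNF708 (LFC -1.08) and ZNF507 (-0.78) at 12 h and ZNF136 (-0.65, adjusted p = 0.0389) at 24 h. ZNF507 was one of the 14 members higher with mercury at 12 h, and ZNF136 one of those higher with arsenic and mercury at 24 h. Without 1.5 h replicate 1 the count was 0 at both 12 and 24 h, without 12 h replicate 1 it was 0 at 12 h, and over the 6 fits at 24 h it ran from 0 to 6 (6 without 24 h replicate 3). The comparisons of metals with non-treated cells use the libraries of the same time point.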

How the data were processed

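RNA of 1321N1 cells was sequenced as 60 libraries with a 3′ mRNA kit (QuantSeq 3′ mRNA-seq FWD). The authors mapped reads to GRCh38 with STAR 2.7.9a and deposited raw counts per gene, counted by strand over GENCODE basic annotation, with no normalization. Libraries held 2215276 to 4404609 counts, which limits low genes, and the 92 spike-in sequences in the table had 0 counts. Counts at the 3′ end depend on the annotated end, so counts of different genes are given as depth and not compared as levels.

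Genes with at least 300 counts over the 60 libraries were fitted together in 1 model of the 20 groups with edgeR 4.0.16 (R 4.3.3, limma 3.58.1), using TMM factors (0.932 to 1.036) and the quasi-likelihood test, and p-values were adjusted by Benjamini-Hochberg over 11926 genes. The SE is the absolute LFC divided by the square root of F, and CPM were scaled by TMM. The common biological coefficient of variation was 0.12. The fit was tested on simulated data. DESeq2 1.42.0 was an alternative, as were other scalings, filters, samples, a replicate block and fits without each library. KRAB boxes and fingers were found by pattern in a translation of GENCODE v44 coding sequence, to which 191 members matched by gene ID; the KRAB pattern was broadened after it was first run. Ends were compared as stretches of 50 bases in the last 400 bases of a transcript. Promoters are from RefSeq (GRCh38.p14), aligned with Biopython 1.88, and 173 members matched by symbol.

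The rule for named genes took those with the most counts, the 5 largest rises and falls among those called with a mean of at least 10 counts per library, those called most often, those called at 1.5 or 3 h, those next to the floor, those that differed most between arsenic and mercury, and the 3 genes of the silencing list with the lowest p for each metal. Other genes given with values were chosen after their values were seen. Members and lists were chosen with earlier results of these data known. No 2 replicates agreed within sampling noise, as chi-square over its degrees of freedom was at least 1.98 in all 60 pairs.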

Additional observations from a re-analysis of the deposited data

Results flagged for a closer look

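At 24 h the direct edgeR test between metals (LFC of the first metal over the second, adjusted over all genes) called 10 members for arsenic against cadmium, 13 for arsenic against mercury and 26 for cadmium against mercury. The 25 pairs of a member and a comparison given here are those of members named by the rule in the methods, and the other called pairs are not listed. These are differences between the treated groups, so the non-treated libraries do not enter the LFC, although all 60 libraries enter the estimate of spread. Comparisons with a metal in common share the libraries of that metal, so their calls are not independent.

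Between arsenic and cadmium, the LFC was 1.08 for ZNF486, 0.95 for ZNF773 and 1.22 for ZNF181, all higher with arsenic, and -1.49 for ZNF628 and -1.11 for ZNF444, both lower with arsenic. ZNF181 and ZNF444 kept this call when any single library was left out. ZNF773 lost it without cadmium replicate 1 (0.74, adjusted p = 0.0776), and ZNF486 and ZNF628 lost it in most such fits, with 0.83 (adjusted p = 0.155) without cadmium replicate 2 and -1.20 (adjusted p = 0.141) without arsenic replicate 2.

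Between arsenic and mercury, 10 members were called lower and 3 higher with arsenic. The 3 higher ones were not among the named members (ZNF333 1.87, ZNF93 0.75 and ZNF302 0.64), and the named ones were all lower. The LFC was -0.75 for ZNF829, -0.82 for ZNF473, -1.09 for ZNF175, -1.46 for ZNF256, -0.90 for ZNF568, -1.50 for ZNF468, -1.27 for ZNF257 and -1.15 for ZNF799. The calls of ZNF829, ZNF473 and ZNF175 held without any single library. The ZNF568 value was -0.74 (adjusted p = 0.183) without arsenic replicate 2.

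Between cadmium and mercury, ZNF628 (1.37) and ZNF444 (0.81) were higher with cadmium. The others were lower with cadmium, with an LFC of -0.92 for ZNF829, -1.53 for ZNF486, -0.74 for ZNF493, -0.66 for ZNF773, -0.92 for ZNF181, -0.71 for ZNF473, -1.65 for ZNF568, -0.56 for ZNF850, -1.09 for ZNF257 and -0.70 for ZNF175. ZNF829, ZNF486 and ZNF568 kept the call without any single library, while ZNF444 lost it without cadmium replicate 1 (0.68, adjusted p = 0.0576). ZNF473 was -0.58 (adjusted p = 0.0587) without cadmium replicate 2. ZNF175 lost the call in each of the 6 fits, and ZNF773, ZNF850 and ZNF257 kept it in 1 of 6.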

How the results depend on the processing

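No called member changed direction, but the median LFC with cadmium at 24 h, close to 0, changed sign with library totals and when 1 library was left out (values below). The calls were most sensitive to single libraries, which at 3 per group sets the main limit. When each library was left out in turn, the number of members called ran from 0 to 1 with arsenic at 1.5 h, 0 to 1 with mercury at 1.5 h, 0 to 1 with mercury at 3 h, 0 to 2 with cadmium and 1 to 5 with mercury at 6 h, 1 to 4 with arsenic and 7 to 19 with mercury at 12 h, and 7 to 15 with arsenic, 0 to 1 with cadmium and 21 to 35 with mercury at 24 h. For the direct comparisons the counts were 6 to 14 for arsenic against cadmium, 5 to 11 for arsenic against mercury and 12 to 26 for cadmium against mercury. For non-treated cells against 1.5 h they were 0 to 3 at 12 h and 0 to 6 at 24 h. The median LFC at 24 h, left out in the same way after seeing the data, was -0.00928 to 0.0589 with cadmium and 0.19 to 0.29 with mercury.

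With no filter on low counts the mercury calls were 0 (1.5 h), 0 (3 h), 1 (6 h) and 9 (12 h), and the other counts were 0 with cadmium at 6 and at 24 h, and 15 for cadmium against mercury. With only the 6 libraries compared, they were 0 with mercury at 3 h and 1 at 6 h, 0, 5 and 0 with cadmium at 6, 12 and 24 h, 9 with arsenic at 24 h, 4 for arsenic against cadmium, 14 for cadmium against mercury, and 1, 5 and 2 for non-treated cells at 6, 12 and 24 h. With library totals in place of TMM they were 7 with mercury at 6 h and 0 with cadmium at 24 h, and the median LFC at 24 h was -0.0392 with cadmium and 0.152 with mercury. That scaling moved the median of all genes by at most 0.09.

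Requiring an LFC beyond 1 in size as well left 0 calls with mercury at 1.5 and 3 h, with cadmium at 6 and 24 h and with arsenic at 12 h, 2, 6 and 17 with mercury at 6, 12 and 24 h, 1 with cadmium at 12 h, 7 with arsenic at 24 h, 6 each for arsenic against cadmium and against mercury, 7 for cadmium against mercury, and 1 and 2 for non-treated cells at 12 and 24 h.

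Replicate numbers did not pair the libraries (median correlation of same-numbered deviations 0.01 over 45 pairs, -0.59 to 0.29). With a replicate block the calls were 13 with arsenic and 32 with mercury at 24 h, 12 for arsenic against cadmium and 25 for cadmium against mercury, and the other counts did not move. Of 38 values for genes named by the rule, those of CBX5 and RBBP7 with cadmium at 24 h were not called in any fit. The others all kept their call under DESeq2 and RLE factors. With no filter on low counts 11 lost it, with only the 6 libraries compared 8, and with library totals 2. With filterByExpr and with the replicate block 1 each lost it, in both cases TRIM28 with cadmium. Of 228 fits without 1 library, some of them for those uncalled values, 72 lost the call.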
